A study of Macaca mulatta with 51 samples.

Results

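The complement components and receptors of diet-induced obese (DIO) rhesus macaques were followed in adipose tissue (AT) and skeletal muscle (SM) before, during and after treatment with fibroblast growth factor 21 (FGF21). The set was defined as 9 gene symbols, namely C1QA, C1QB, C1QC, C1R, C1S, C3, C3AR1, C5AR1 and SERPING1, and a gene was included where its symbol stood on a row of the count table. This gave 7 of the 9, out of 16033 genes in the table. C1R and C1S, the proteases of the first complement complex, matched no row and were not analysed here. All 7 genes passed the filter on low counts in both tissues.

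Complement is a cascade of plasma and tissue proteins that tags particles for removal. C1q, built from the chains encoded by C1QA, C1QB and C1QC, binds immune complexes, pathogens and dying cells and starts the classical pathway through C1R and C1S, while C3 is the component on which the classical, lectin and alternative pathways meet. Cleavage of C3 and C5 releases the small peptides C3a and C5a, which are sensed by the receptors C3AR1 and C5AR1, and SERPING1 encodes C1 inhibitor, which blocks C1R and C1S. Tissue macrophages are a main source of C1q and carry both receptors, whereas C3 and C1 inhibitor are also made by hepatocytes, adipocytes and stromal cells.

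Subcutaneous abdominal AT and gastrocnemius SM were biopsied in 10 DIO animals, 5 males and 5 ovariectomized females aged 11 to 22 years that had been on a high-fat, high-sucrose diet for at least 2 years. Biopsies were taken pre-treatment, after 12 weeks of daily subcutaneous injections of native human FGF21 (post-treatment), and 16 weeks after the last of these injections (washout). The dose was raised stepwise from 10 ug/kg per day, and 1 animal was held at a lower top dose than the others. No untreated animals were sampled in parallel, so each animal's pre-treatment biopsy was its control, and time and treatment cannot be told apart. RNA was sequenced from polyA libraries, and the counts covered 10, 9 and 8 AT libraries and 6, 8 and 7 SM libraries, in the order of these biopsies.

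Total counts ranged from 15756491 to 23940980 in AT and from 14455195 to 21740711 in SM. The 5 adipocyte markers measured summed to at least 14373 CPM (counts scaled to a common library total) in every AT library and to at most 1609 CPM in SM, and the 9 skeletal muscle markers to at most 169 CPM in AT and at least 51907 CPM in SM, so each library carried the markers of its labelled tissue. The library identifiers fall into 3 number series whose meaning the labels do not give, and these were treated as possible batches. The SM washout library of animal 22130 stood apart from the other 6 of its group in 5 of the 7 genes. Fold changes of the C1q chains in SM and some comparisons of the tissues are given with and without it. The SM ranges, medians and correlations include it. Levels below are CPM after TMM normalization within a tissue. Differential expression (DE) was called where the fold change exceeded 0.26 on the log2 scale in either direction and the adjusted p was below 0.05. The p values came from the quasi-likelihood test of edgeR with animal in the model, adjusted by Benjamini-Hochberg across every gene tested in that tissue.

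In AT, the 3 C1q chains were higher post-treatment than pre-treatment and then fell at washout to below their pre-treatment level. C1QB was 1.95-fold higher post-treatment in the fitted comparison, and at washout it was 4.36-fold lower than post-treatment. The post-treatment calls depended on the fit: C1QA and C1QB were DE in 12 of 22 alternative fits and C1QC in 16. At washout versus post-treatment all 3 chains were DE in all 22. The receptors C3AR1 and C5AR1 also fell from post-treatment to washout, 2.94-fold and 3.84-fold, but were not DE against pre-treatment at either time. C3 and SERPING1 were not DE in any of the 3 comparisons.

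**Figure D1:**
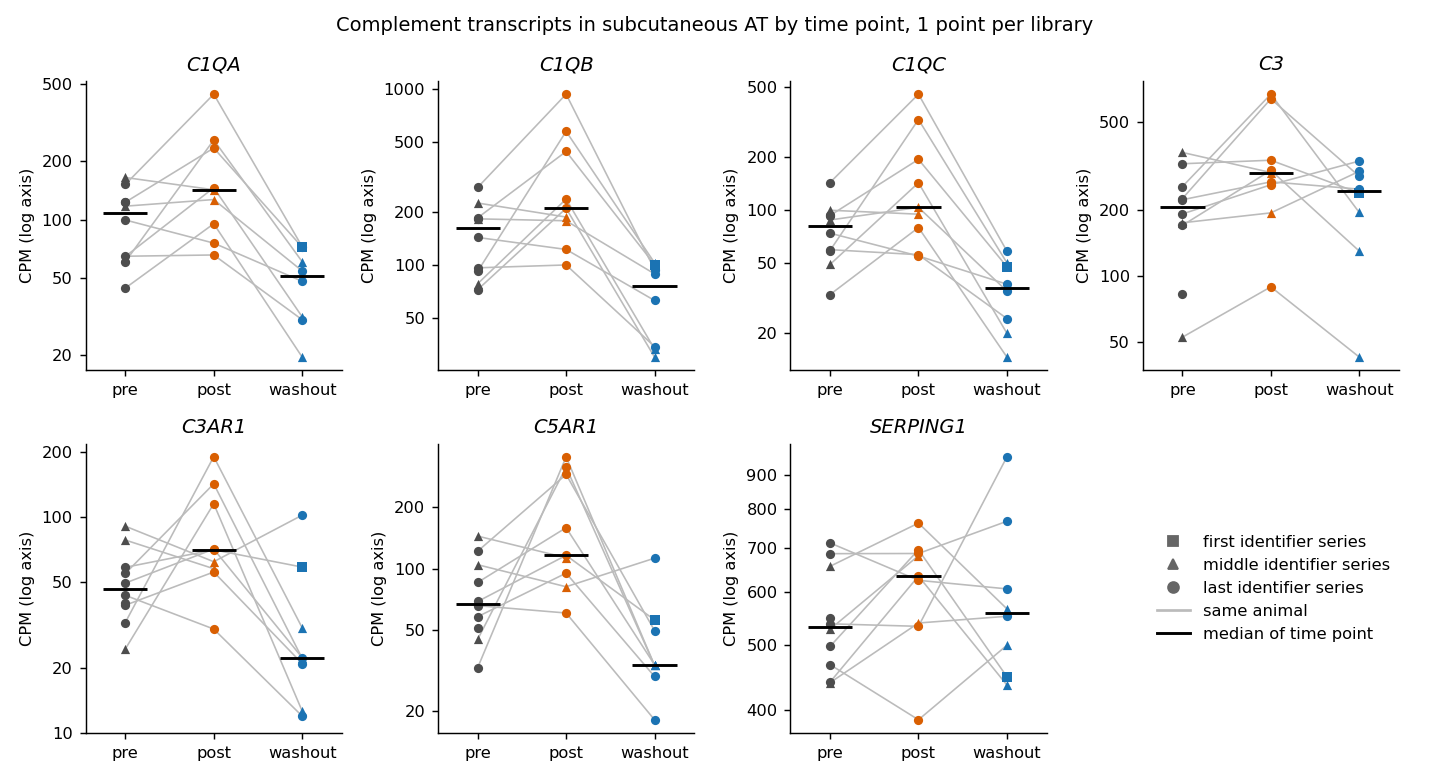
CPM (log axis) of the 7 complement genes in each AT library, by time point; grey lines join libraries of the same animal, black bars are medians, and marker shapes give the identifier series. The C1q chains and both receptors were high in some post-treatment libraries and low in most washout libraries, while SERPING1 stayed between 387 and 956 CPM.

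C1QA (ENSG00000173372) ranged from 44.4 to 165 CPM in the 10 pre-treatment AT libraries, with a median of 109 CPM. In the 9 post-treatment libraries it ranged from 65.8 to 443 CPM with a median of 143 CPM, and in the 8 washout libraries from 19.6 to 72.6 CPM with a median of 51.3 CPM. The groups overlapped, but 3 post-treatment libraries (animals 20275, 21189 and 26292) lay above every pre-treatment library, and 6 of 8 washout libraries lay below every post-treatment one. The mean was 102 ± 41.4 CPM (SD, n = 10) pre-treatment, 176 ± 120 CPM (n = 9) post-treatment and 48.8 ± 19.9 CPM (n = 8) at washout. The log2 fold change post-treatment versus pre-treatment was 0.73 (SE 0.21, adjusted p = 0.0271), and 7 of 9 animals were higher.

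C1QB (ENSG00000173369) ranged from 72.8 to 276 CPM (median 163) pre-treatment, from 100.4 to 929 CPM (median 210) post-treatment and from 30.2 to 103 CPM (median 76.3) at washout. The highest post-treatment library, of animal 21189, held more than 3 times the highest pre-treatment level, which came from the same animal. The post-treatment log2 fold change was 0.96 (SE 0.27, adjusted p = 0.0238), with 6 of 9 animals higher. Animal 20275 rose most, 6.20-fold, and animals 20456, 21866 and 23004 were at 0.833, 0.855 and 0.975 of their own pre-treatment level.

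C1QC (ENSG00000159189) ranged from 33.0 to 143 CPM (median 80.7) pre-treatment, from 54.7 to 454 CPM (median 103) post-treatment and from 14.6 to 58.3 CPM (median 36.2) at washout. The same 3 post-treatment libraries as for C1QA lay above all pre-treatment libraries, and the remaining 6 lay within the pre-treatment range. Its post-treatment log2 fold change was 0.90 (SE 0.25, adjusted p = 0.0218), with 6 of 9 animals higher.

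Of the 7 complement genes, 3 were thus DE and higher post-treatment, against 6.98% of the 13367 genes tested in AT. The median log2 fold change of the 7 was 0.76, and that of all genes tested was 0.03. Without animal 19832, 20261 or 21866, 3 of the 7 were DE (2066, 1537 and 1394 of all genes). With the identifier series in the model 3 also were (2025 of all genes). Leaving out some other single animals ended the post-treatment calls. Without animals 20275, 21189 and 22130, respectively, C1QB was 1.71-fold, 1.79-fold and 1.83-fold higher (adjusted p = 0.0601, 0.0668 and 0.0777), and none of the 7 was DE in these fits. The DE genes among all tested fell from 2068 to 998, 1323 and 801 in the same fits. Without animal 24849 or 26292, or without the pre-treatment library of animal 20275 alone, C1QC was the only 1 of the 7 called (2094, 1488 and 1164 of all genes). None of the 7 was DE when only the 2 time points were fitted together (1496 of all genes) or in the AT libraries of the last identifier series alone (808). The same held with voomWithQualityWeights and limma, the test of the study's methods (1844 of all genes), where the adjusted p of C1QB was 0.0753. With DESeq2, or without animal 20456 or 23004, 5 of the 7 were called (2607, 2170 and 2209 of all genes). With animal left out of the model 2 were, C1QC and C5AR1 (1420 of all genes). The direction of all 3 C1q chains was the same in each of these fits.

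At washout every animal was below its own post-treatment level in all 3 C1q chains, in 8 of 8 pairs. C1QA fell by 1.73 on the log2 scale (SE 0.22, adjusted p = 2.31e-05). C1QB fell by 2.13 (SE 0.29, adjusted p = 3.49e-05), with single animals at 0.102 to 0.514 of their post-treatment level. C1QC fell by 2.06 (SE 0.26, adjusted p = 2.23e-05). The smallest decreases were in animal 21866, which had not been higher post-treatment, and the largest in animal 21189.

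Washout levels were also below pre-treatment. The log2 fold change was -0.995 for C1QA (SE 0.22, adjusted p = 0.00285), -1.16 for C1QB (SE 0.28, adjusted p = 0.00520) and -1.16 for C1QC (SE 0.26, adjusted p = 0.00295). All 8 washout libraries lay below the pre-treatment median for each chain, though 4 or 5 of them lay within the pre-treatment range. Animal 20275 was the exception among the pairs, with C1QB at 1.12, C1QA at 1.0002 and C1QC at 0.852 of its own pre-treatment level. Of the 7 genes, 5 were DE and lower at washout than post-treatment (17.8% of all genes tested) and 3 were DE and lower than pre-treatment (7.96%). The 5 calls against post-treatment held without each animal in turn. The 3 calls against pre-treatment were lost in the last identifier series alone, where the adjusted p of edgeR's test was 0.111 to 0.180. That fit held 4 washout libraries, and 1120 of all genes were DE in it, against 2735 over all series. With the series in the model the 5 and the 3 calls held (4394 and 3282 of all genes). Against pre-treatment, both receptors were DE as well with voomWithQualityWeights (3685 of all genes) or with only the 2 time points fitted (3374).

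**Figure D2:**
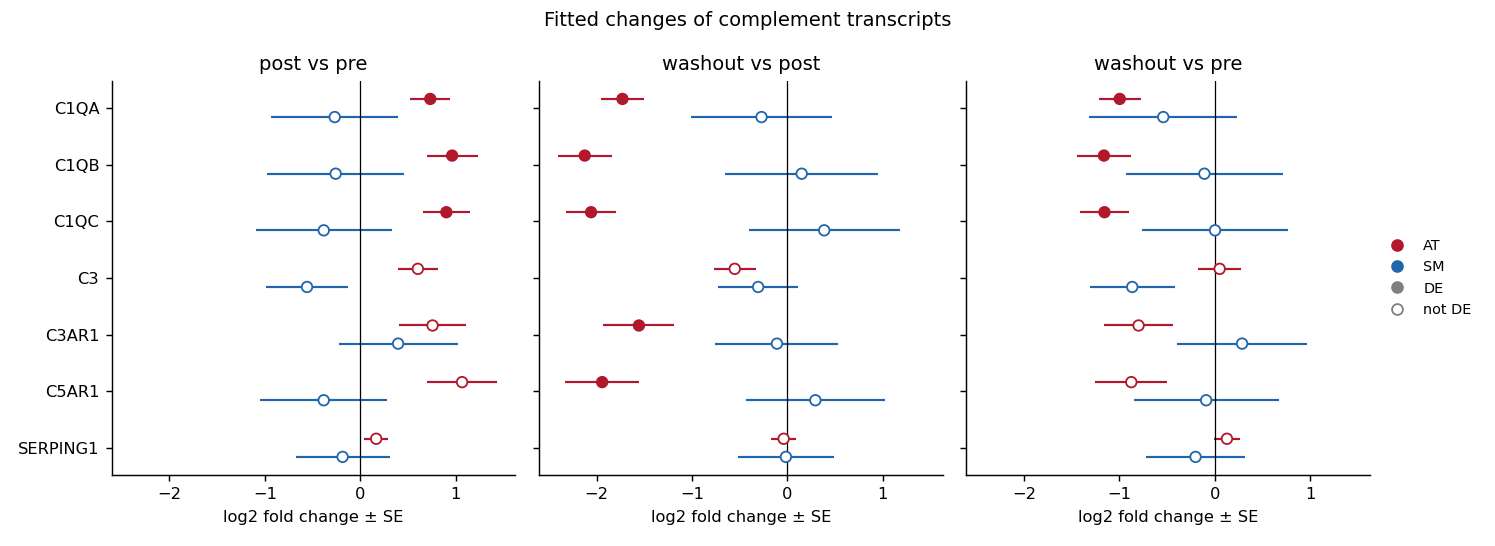
Fitted log2 fold changes (points) with their SE (bars) of the 7 genes in the 3 comparisons, in AT (red) and SM (blue); filled points were DE. In AT the C1q chains were DE in all 3 comparisons and the receptors at washout versus post-treatment, and in SM no gene was DE.

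In AT the 3 chains varied together but not in a fixed proportion. Over the 27 AT libraries of 10 animals, the Pearson r of log2 CPM between pairs of chains was 0.981 to 0.983, values that share libraries and animals. The count of C1QB per count of C1QA was 1.503 ± 0.158 (SD, n = 10) pre-treatment, 1.77 ± 0.345 (n = 9) post-treatment and 1.39 ± 0.229 (n = 8) at washout. It was higher post-treatment than pre-treatment in 7 of 9 animals (exact two-sided sign-flip permutation test, p = 0.0352, adjusted p = 0.0422 over 6 ratio tests) and lower at washout than post-treatment in 7 of 8 (exact permutation p = 0.0156, adjusted p = 0.0422). The count of C1QC per count of C1QA was 0.793 ± 0.113, 0.885 ± 0.181 and 0.734 ± 0.0802 at the 3 time points. It also was higher post-treatment in 7 of 9 animals (exact permutation p = 0.0312, adjusted p = 0.0422) and lower at washout than post-treatment in 7 of 8 (p = 0.0234, adjusted p = 0.0422, exact permutation). At washout versus pre-treatment the ratio of C1QC to C1QA was lower in 6 of 8 animals (exact permutation p = 0.0312, adjusted p = 0.0422), as was that of C1QB to C1QA, which did not pass (exact permutation p = 0.102, adjusted p = 0.102). These ratios were chosen after the levels had been seen. A ratio within a library does not depend on its depth or normalization. In SM the ratios were not tested, and counts were as low as 9 in a library. Mean C1QB to C1QA was 1.12 pre-treatment, 1.04 post-treatment and 1.39 at washout there, lowest post-treatment where AT was highest. Mean C1QC to C1QA in SM was 0.623, 0.554 and 0.895 in the same order.

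C3 (ENSG00000125730), the central component, ranged in AT from 52.7 to 363 CPM (median 206) pre-treatment, from 89.2 to 668 CPM (median 294) post-treatment and from 42.8 to 332 CPM (median 243) at washout. Animal 22130 held the lowest level at all 3 time points, and the post-treatment libraries of animals 21866 (636 CPM) and 24849 (668 CPM) were the only ones above the pre-treatment range. Post-treatment the level was above pre-treatment in 8 of 9 animals, but the log2 fold change of 0.60 (SE 0.21) had an adjusted p of 0.0568. At washout it was -0.55 against post-treatment (SE 0.22, adjusted p = 0.0578) and 0.05 against pre-treatment (SE 0.22, adjusted p = 0.897). DESeq2 called C3 DE post-treatment versus pre-treatment (adjusted p = 0.0276) and at washout versus post-treatment (adjusted p = 0.0379). It was also DE in the former without animal 20456 (adjusted p = 0.0338) or 23004 (0.0433), and in the latter without animal 20456 (0.0357), 21189 (0.0305) or 23004 (0.0162).

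C3AR1 (ENSG00000171860), the receptor for C3a, ranged in AT from 24.5 to 90.6 CPM (median 46.4) pre-treatment, from 30.3 to 190 CPM (median 70.4) post-treatment and from 11.97 to 102 CPM (median 22.2) at washout. Post-treatment libraries of animals 20275, 21189 and 22130 lay above the pre-treatment range, and 5 of 8 washout libraries lay below both earlier ranges. Its log2 fold change was 0.76 post-treatment versus pre-treatment (SE 0.35, adjusted p = 0.130) and -1.56 at washout versus post-treatment (SE 0.37, adjusted p = 0.00349). Against pre-treatment, washout gave -0.80 (SE 0.36, adjusted p = 0.126).

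C5AR1 (ENSG00000197405), the receptor for C5a, ranged in AT from 32.7 to 144 CPM (median 67.4) pre-treatment, from 60.6 to 352 CPM (median 116) post-treatment and from 18.2 to 112 CPM (median 33.7) at washout. The post-treatment group had a gap, with 3 libraries at 289 to 352 CPM, of animals 20275, 21189 and 22130, and the other 6 at or below 158 CPM. Animal 20275 showed the widest step, 10.7-fold from its pre-treatment level, which was the lowest of that group. The log2 fold change was 1.07 post-treatment versus pre-treatment (SE 0.37, adjusted p = 0.0531) and -1.94 at washout versus post-treatment (SE 0.39, adjusted p = 9.86e-04). Washout versus pre-treatment gave -0.87 (SE 0.38, adjusted p = 0.107).

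At washout animal 23004 departed from the other 7 for both receptors but not for C1q. Its C3AR1 was 102 CPM and its C5AR1 112 CPM, 1.64-fold and 1.38-fold above its own post-treatment level, while its C1QB was at 0.501 of that level. Without this animal the log2 fold changes of C3AR1 and C5AR1 at washout versus post-treatment were -1.86 and -2.25, and C5AR1 was also DE against pre-treatment (adjusted p = 0.0443).

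SERPING1 (ENSG00000149131), the inhibitor of C1R and C1S, had the smallest SD relative to its mean of the 7 genes in AT. It ranged from 440 to 711 CPM (median 533) pre-treatment, from 387 to 762 CPM (median 635) post-treatment and from 436 to 956 CPM (median 560) at washout. The 3 groups overlapped, and the washout libraries of animals 21189 (956 CPM) and 21866 (766 CPM) lay above every earlier library. The log2 fold changes were 0.17 (SE 0.13, adjusted p = 0.364), -0.04 (SE 0.13, adjusted p = 0.838) and 0.13 (SE 0.13, adjusted p = 0.525) for post-treatment versus pre-treatment, washout versus post-treatment and washout versus pre-treatment, respectively. In animal 20275, whose C1q and receptors stepped up most, SERPING1 was at 0.827 of its pre-treatment level post-treatment.

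Markers of macrophages moved with the C1q chains and receptors in AT. All 14 macrophage markers were measured, and none was at 0 in any group. All 14 had a positive log2 fold change post-treatment versus pre-treatment. Of these, 3 were DE (AIF1, FCER1G and MS4A7), where 933 of all 13367 genes were DE and higher. All 14 were DE and lower at washout than post-treatment (2379 of all genes). CD163, CSF1R and MRC1 were the 3 markers DE and lower than pre-treatment (1064 of all genes). The summed level of the 14 markers ranged from 780 to 3497 CPM pre-treatment, from 1338 to 8469 CPM post-treatment and from 531 to 3688 CPM at washout. The highest washout value was that of animal 23004. The part of these cells in the complement results was not tested, and in bulk samples more or fewer cells of a type cannot be told apart from more or less RNA per cell.

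The receptors followed the macrophage sum more closely than C1q did. Over the 27 AT libraries the Pearson r of log2 levels with the summed markers was 0.977 for C3AR1, 0.953 for C5AR1, 0.797 for C1QB, 0.369 for C3 and -0.311 for SERPING1. These are descriptions over libraries that share animals and time points. Among other lists in AT, 3 of 5 adipocyte markers (LEP, LPL and PLIN1) were DE and lower post-treatment, 2 of 10 fibroblast and progenitor markers (COL1A1 and COL1A2) were DE and higher, and 1 of 6 neutrophil markers (CXCR2) was DE and lower. Over all 13367 genes, 933 were DE and higher and 1135 DE and lower in that comparison. The 7 neutrophil markers measured summed to at most 43.6 CPM in AT. Neutrophils also carry C5AR1, and their part in its values was not tested. None of 3 T cell markers, 5 endothelial markers, 9 skeletal muscle markers or 2 erythroid markers tested was DE post-treatment. At washout versus post-treatment, LEP, CDH5 of endothelium and the erythroid genes ALAS2 and HBB were DE and higher, and COL1A1, COL1A2 and PDGFRA of the fibroblast list were DE and lower. At washout versus pre-treatment, CDH5 was DE and higher and PDGFRA and the neutrophil gene LTF were DE and lower. Over all genes, 2352 were DE and higher and 2379 lower at washout versus post-treatment, and 1671 and 1064 versus pre-treatment.

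**Figure D3:**
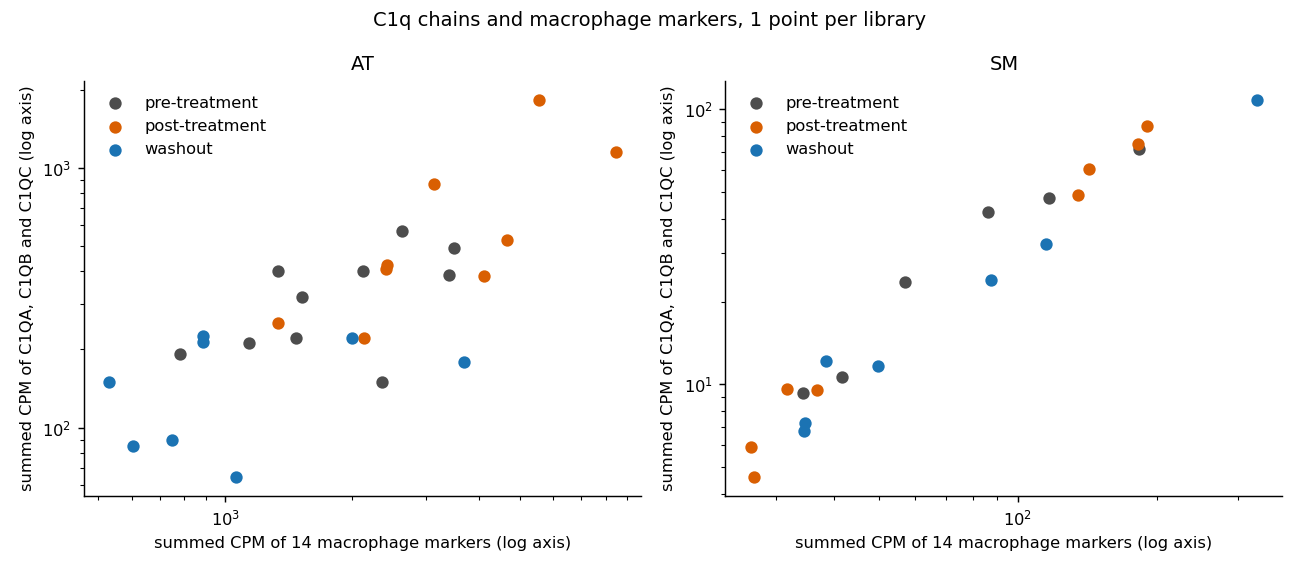
Summed CPM of C1QA, C1QB and C1QC against the summed CPM of 14 macrophage markers, both on log axes, 1 point per library and colour by time point, in AT (left) and SM (right). In AT 6 of the 8 washout libraries lie at or below 1062 CPM of macrophage markers, and those of animals 26292 and 23004 lie at 2003 and 3688 CPM; in SM the points fall near a line at all time points.

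The genes most like each of 4 complement genes were sought among the 13367 genes tested, as the Pearson r of log2 CPM over the 27 AT libraries after the mean of each of the 10 animals was removed. For C1QB these were VSIG4, a macrophage receptor of complement C3 fragments (r = 0.958), CD4 (0.954) and FAM109A (0.952). For C3AR1 they included GLIPR1 (0.981) and MPEG1, a pore-forming protein of macrophages (0.979). C3 and SERPING1 had looser neighbours, ARMCX2 (0.836), MAN1C1 (0.805) and MYOF (0.801) for C3 and CYTH2 (0.867), RARG (0.843) and ST5 (0.828) for SERPING1. Among the complement genes themselves, r on this scale was 0.978 between the receptors, 0.912 between C1QB and C5AR1, 0.490 between C1QB and C3, and 0.0019 between C1QB and SERPING1.

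The rest of the complement system was described over a list of 43 further genes, of which 38 had a row and 29 were tested in AT. Post-treatment, 4 were DE and higher and 1 was DE and lower, where 933 and 1135 of all 13367 genes were, and the median log2 fold change was 0.31, against 0.03 over all genes. At washout versus post-treatment, 2 were DE and higher and 13 DE and lower (2352 and 2379 of all genes), with a median of -0.29 against -0.00 over all genes. At washout versus pre-treatment 2 were DE in each direction (1671 higher and 1064 lower of all genes), with a median of -0.09 against -0.02.

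Among recognition molecules, which take the place of C1q in the lectin pathway, none of 4 tested was DE post-treatment. FCN3 was at 14.4 ± 4.68 CPM pre-treatment and 15.1 ± 7.12 CPM post-treatment, and MASP1, the lectin-pathway protease, had a log2 fold change of -0.62 (adjusted p = 0.126). FCN1 fell at washout versus post-treatment by 0.78 (adjusted p = 0.0130). MBL2 and MASP2 had no count in any AT library. Of the convertase components C2 and C4A, neither was DE post-treatment, and C2 fell at washout by 0.52 (adjusted p = 0.00364).

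In the alternative pathway, CFP, properdin, which stabilises the C3 convertase, was the gene that rose. Its mean was 17.8 ± 6.20 CPM pre-treatment and 33.5 ± 24.0 CPM post-treatment (0.81 on the log2 scale, adjusted p = 0.0270) and 11.2 ± 5.004 CPM at washout (-1.55 against post-treatment, adjusted p = 1.36e-04). CFD, adipsin, the protease that activates factor B, was not DE post-treatment (log2 fold change 0.23, adjusted p = 0.467) and fell at washout by 0.79 (adjusted p = 0.0121). CFB, factor B, was not DE in any of the 3 comparisons, and its washout levels were uneven at 396 ± 629 CPM.

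Of 5 terminal-pathway genes, whose products form the membrane attack complex, C5 rose post-treatment (log2 fold change 0.62, adjusted p = 0.0465) from a low level of 5.04 ± 2.76 CPM. C8B fell (-1.11, adjusted p = 0.0227), at means of 1.71 CPM pre-treatment and 0.842 CPM post-treatment. C6 and C7 fell at washout versus post-treatment, by 1.72 (adjusted p = 0.00262) and 0.63 (adjusted p = 0.00974), while C9 rose (1.97, adjusted p = 3.51e-04) at a mean of 0.984 CPM.

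Among 7 other receptors, VSIG4 rose post-treatment by 0.94 on the log2 scale (adjusted p = 0.0308), with means of 96.4 ± 41.2 and 191 ± 117 CPM, and fell at washout by 1.79 (adjusted p = 1.76e-04). ITGAM, ITGAX and ITGB2, the chains of the integrin receptors for C3 fragments, were not DE post-treatment, with ITGAX at 1.35 (adjusted p = 0.0898). All 3 fell at washout versus post-treatment, by 1.79, 2.01 and 1.98 (adjusted p = 0.00681, 0.0113 and 0.00855). C5AR2, the second receptor for C5a, fell by 0.70 (adjusted p = 0.0122). CD93, a receptor of endothelial and myeloid cells, had a log2 fold change of 0.01 post-treatment (adjusted p = 0.949) and 0.11 at washout (adjusted p = 0.496). Of 8 regulators, CFI, the protease that degrades C3b, rose post-treatment (0.45, adjusted p = 0.0315) and was still higher at washout than pre-treatment (0.61, adjusted p = 0.00390). The membrane regulators CD55 and CD59 fell at washout versus post-treatment by 0.54 (adjusted p = 0.0346) and 0.30 (adjusted p = 0.0185), and CD46 and CLU were not DE in any comparison.

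**Figure D4:**
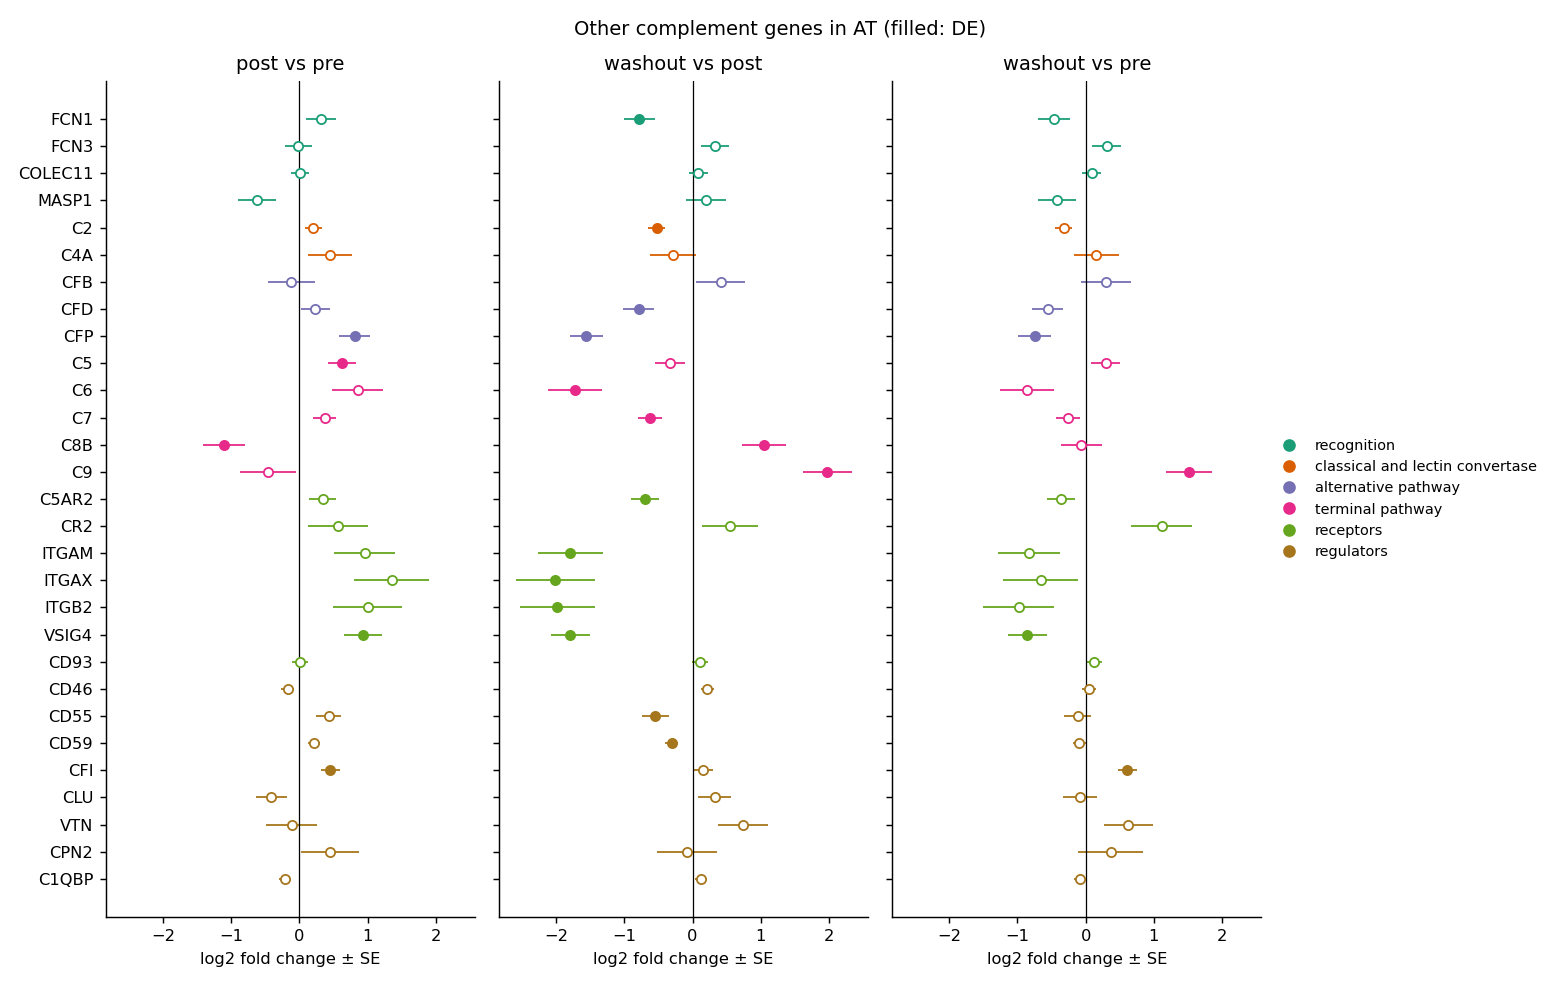
Fitted log2 fold changes (points) with SE (bars) of the 29 other complement genes tested in AT, in the 3 comparisons and coloured by role; filled points were DE. Post-treatment 5 genes were DE, and at washout versus post-treatment 15 were, 13 of them lower.

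In SM none of the 7 genes was DE in any of the 3 comparisons. The share of all 12617 genes tested that was DE was 0% post-treatment versus pre-treatment, 0.19% at washout versus post-treatment and 0.0634% at washout versus pre-treatment. None of the 7 had an unadjusted p under 0.05 in edgeR's quasi-likelihood test in these comparisons, and DESeq2 and voomWithQualityWeights also called 0 of them. The SEs of the C1q chains were 0.67 to 0.82 on the log2 scale, close to the AT post-treatment changes of 0.73 to 0.96, so that a change of that size was not detectable in SM. Of the 24 other complement genes tested in SM, 0 were DE, with 1, 2 and 2 at an unadjusted p under 0.05 in the 3 comparisons.

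Libraries of the same SM group differed by up to 56.7-fold, for C3AR1 post-treatment. C1QA ranged from 3.18 to 24.1 CPM (median 12.4) pre-treatment, from 2.37 to 31.3 CPM (median 9.95) post-treatment and from 2.28 to 34.4 CPM (median 3.38) at washout. C1QB ranged from 4.11 to 30.0 CPM (median 11.9), from 1.51 to 37.4 CPM (median 12.1) and from 2.17 to 46.2 CPM (median 5.75) at the same time points. C1QC ranged from 1.73 to 17.5 CPM (median 8.28), from 0.679 to 18.3 CPM (median 6.83) and from 2.15 to 27.4 CPM (median 3.30). The ranges of the 3 time points overlapped almost fully, and the highest washout library of each chain was that of animal 22130.

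C3 in SM ranged from 3.92 to 38.7 CPM (median 11.3), from 1.06 to 44.7 CPM (median 9.90) and from 2.35 to 23.7 CPM (median 7.24) at the 3 time points. C3AR1 ranged from 0.310 to 3.09 CPM (median 1.64), from 0.151 to 8.55 CPM (median 1.95) and from 0.522 to 4.33 CPM (median 1.17), with counts as low as 2 in a library. C5AR1 ranged from 1.16 to 7.96 CPM (median 4.49), from 0.482 to 8.31 CPM (median 4.17) and from 1.22 to 27.0 CPM (median 1.79). SERPING1 ranged from 37.4 to 160 CPM (median 71.4), from 19.6 to 188 CPM (median 75.4) and from 26.9 to 214 CPM (median 37.8), a far wider spread than in AT.

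**Figure D5:**
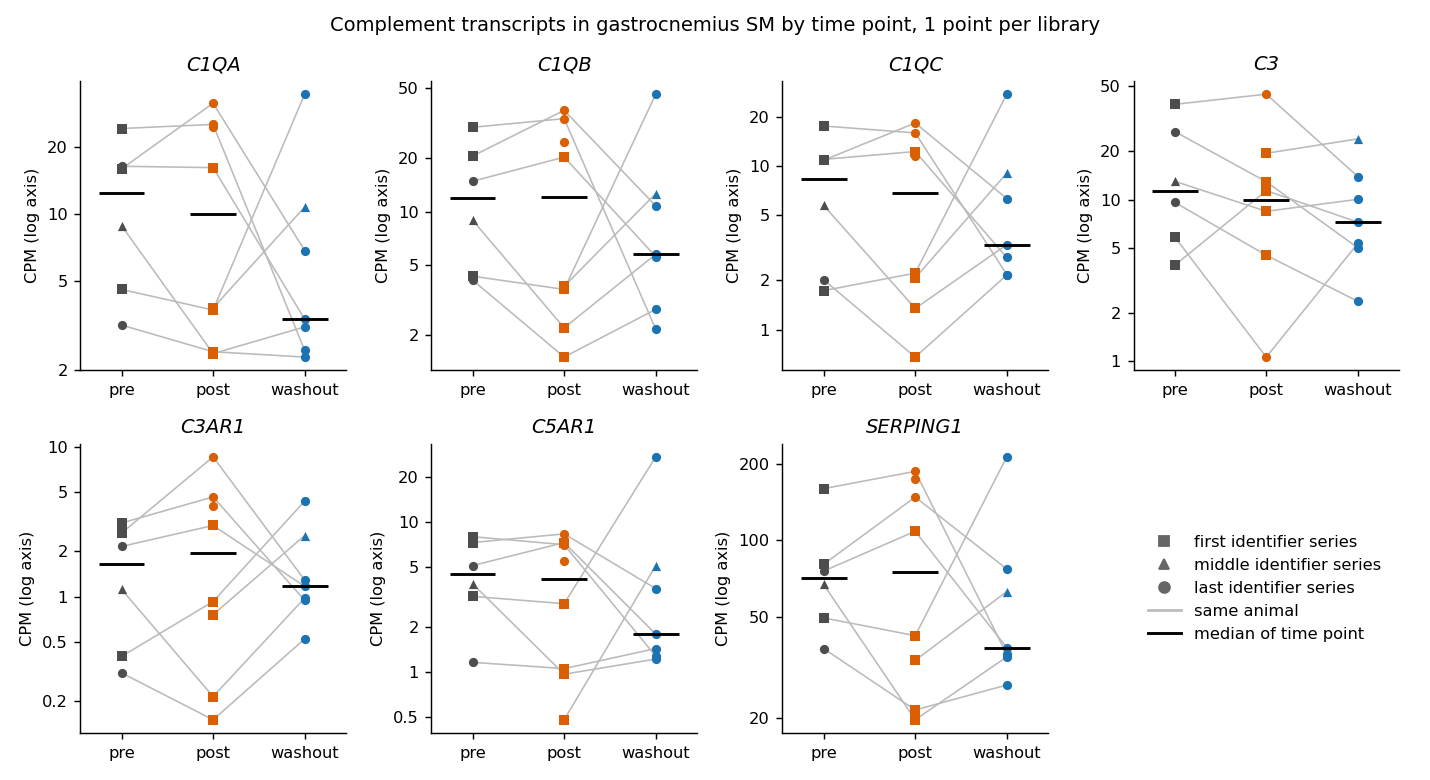
CPM (log axis) of the 7 complement genes in each SM library, by time point, drawn as for AT. The 3 post-treatment libraries of the last identifier series (circles) lie above those of the first series (squares) for C1QA, C1QB, C3AR1 and SERPING1, and the washout library of animal 22130 is the highest of its group for every gene except C3.

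For 4 of the 7 genes, C1QA, C1QB, C3AR1 and SERPING1, the post-treatment SM libraries split by identifier series. For C1QB the 3 libraries of the last series (animals 21189, 21866 and 24849) held 24.6 to 37.4 CPM and the 5 of the first series 1.51 to 20.3 CPM. For SERPING1 the ranges were 148 to 188 CPM and 19.6 to 109 CPM. C3 did not split this way, with 1.06 to 44.7 CPM in the last series and 4.53 to 19.3 CPM in the first, and the ranges of C1QC and C5AR1 overlapped, with C1QC at 11.4 to 18.3 CPM in the last series and 0.679 to 12.2 CPM in the first. Within the last series alone, 6 of the 7 genes were DE and lower at washout versus post-treatment, all except C3, with a log2 fold change of -2.81 for C1QB (adjusted p = 0.0141). In that fit 3009 of all 12617 genes were DE, against 24 over all series. With animal in the model, it compared these time points only within animals 21189 and 24849, the only ones with last-series SM libraries at both. Over all series the log2 fold change of C1QB was 0.15 (SE 0.80, adjusted p = 0.943), and with the series in the model 0 of the 7 were DE (2650 of all genes). Among the post-treatment SM libraries the series and the animals cannot be told apart, since each library came from a different animal. The pre-treatment SM libraries of animals 21189 and 24849 were of the first series. Their C1QB was at 20.6 and 30.0 CPM, the highest of the pre-treatment group.

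Markers of macrophages and fibroblasts varied with the complement genes other than C3 in SM. All 14 macrophage markers were tested and none was DE, and their sum ranged from 34.2 to 182 CPM pre-treatment, from 26.4 to 191 CPM post-treatment and from 34.4 to 329 CPM at washout, the last being animal 22130. Over the 21 SM libraries the r of log2 levels with this sum was 0.974 for C1QB and 0.959 for SERPING1, against 0.120 for C3, whose r with the adipocyte sum was 0.734. With the summed fibroblast and progenitor markers, of which none of 10 was DE, r was 0.885 for C1QB, 0.906 for SERPING1 and -0.0411 for C3. The skeletal muscle markers ran the other way, with r = -0.757 for C1QB, and the 3 last-series post-treatment libraries had the 3 lowest muscle sums of all SM libraries, 51907 to 100623 CPM. The part of the cell mixture in these values was not tested.

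Without the SM washout library of animal 22130 the log2 fold changes of the C1q chains at washout versus post-treatment were -1.12, -0.70 and -0.52 for C1QA, C1QB and C1QC, in place of -0.27, 0.15 and 0.39, and none of the 7 was DE (lowest adjusted p = 0.228). At washout versus pre-treatment C1QA was then at -1.43 (adjusted p = 0.270), in place of -0.54 (adjusted p = 0.809).

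Between the tissues, with all 48 libraries normalized together over 12322 genes, the complement genes were higher in AT. All 7 were DE and higher in AT pre-treatment (41.2% of all genes) and post-treatment (40.8%), and 6 of 7 at washout (42.3%), shares of all genes that show how common such a difference was. Pre-treatment the fold was smallest for SERPING1 (4.12-fold, adjusted p = 1.20e-05) and largest for C3AR1 (21.98-fold, adjusted p = 2.58e-07). C3 was 6.57-fold higher pre-treatment and 12.8-fold at washout. C1QB was 8.17-fold, 11.8-fold and 2.93-fold higher in AT at the 3 time points, and 6.30-fold higher at washout without the SM library of animal 22130. C1QC was the exception at washout, 2.38-fold higher with an adjusted p of 0.0630, and it was DE there without the SM library of animal 22130 (log2 difference 2.26, adjusted p = 5.14e-04).

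Whether a change differed between the tissues was tested as an interaction. Post-treatment versus pre-treatment, 0 of the 7 differed (0.0487% of all genes), with 1 of them, C3, at an unadjusted p under 0.05 and 0 by voomWithQualityWeights. At washout versus post-treatment 3 differed (22.7% of all genes), with the log2 change in AT minus that in SM at -2.32 for C1QB (SE 0.78, adjusted p = 0.0303), -2.52 for C1QC (SE 0.76, adjusted p = 0.0167) and -2.27 for C5AR1 (SE 0.80, adjusted p = 0.0397). At washout versus pre-treatment 0 of the 7 did (17.5% of all genes), with 0 at an unadjusted p under 0.05 and 0 by voomWithQualityWeights. These calls depended on the SM libraries and the normalization. With library size alone in place of TMM none of the 3 was called (adjusted p = 0.0897, 0.0551 and 0.0981), where 3021 of all genes were. With voomWithQualityWeights C1QB and C1QC were (1991 of all genes). Without the SM washout library of animal 22130 only C1QC was called (-1.63, adjusted p = 0.0473), where 3059 of all genes were. With the identifier series in the model none was (adjusted p = 0.148, 0.0883 and 0.155), where 4143 of all genes were. Within the last series, where 3871 of all genes were called, the values of C1QB and C1QC were 0.40 and 0.14. SERPING1 was called there at washout versus post-treatment (1.87, adjusted p = 0.00442, against -0.03 over all libraries). At washout versus pre-treatment C3 was called in that series (2.57, adjusted p = 0.0368), where 2248 of all genes were.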

How the data were processed

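Libraries were made with a stranded polyA kit and read as paired 50 nt reads, which the study aligned with STAR to the MacaM rhesus genome and assigned to genes carrying the symbol and identifier of the human homolog. The counter was not given in the sources used here. The counts per gene that the authors deposited were raw, and no sample column of another series was present (0). Of 16103 entries, 70 repeats of a gene with the same counts were dropped. Counts covered 48 of 51 labelled samples, and 3 SM samples (pre-treatment 20456 and 21866, washout 21866) were not analysed here.

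Genes with at least 0.5 CPM in 10% of the libraries of a tissue were kept, TMM-normalized and fitted with edgeR 4.0.16 (R 4.3.3; glmQLFit with legacy = FALSE) on all 3 time points with animal as a block. The labels name the animal of each sample, so libraries of the same animal were paired. The levels of the tissues were compared in a joint fit with animal as a block. Interactions came from a joint fit with animal within tissue as the block, and were called at an adjusted p below 0.05 without a fold change limit. Adjusted p values are Benjamini-Hochberg over all genes tested, log2 CPM for correlations used a prior count of 2, and SEs are of the log2 fold change. C1q ratios were tested by exact two-sided sign-flip permutation tests. limma 3.58.1 and DESeq2 1.42.0 gave alternatives. The fitting steps were tested on simulated data. The members, gene lists and tests were chosen with earlier results of these data known. Named genes were the members, those DE post-treatment in AT in each list or, where fewer than 2 were, the 2 most abundant, and the 3 genes most like C1QB, C3, SERPING1 and C3AR1 (C1S, also in that rule, had no row, and 1 gene that the rule names is not reported here). Genes named only for washout were chosen after their values were seen.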

Additional observations from a re-analysis of the deposited data

Results flagged for a closer look

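In 8 of 42 groups a library lay far from the others of its group by Dixon's criterion, applied to CPM. For normally distributed values chance meets it in about 1 in 20 groups. That distribution was not checked for CPM, and the 42 groups shared libraries, so the 8 cannot be weighed against that rate. Of the 8 flagged groups, 5 were flagged for the same SM washout library, of animal 22130. It held 34.4 CPM of C1QA (next highest 10.7), 46.2 CPM of C1QB (12.7), 27.4 CPM of C1QC (9.03), 27.0 CPM of C5AR1 (5.11) and 214 CPM of SERPING1 (77.2), and its macrophage marker sum of 329 CPM was the highest of all SM libraries. In SM of animal 24849, C3 was at 44.7 CPM post-treatment (next 19.3) and SERPING1 at 160 CPM pre-treatment (next 80.6). In AT, C5AR1 was at 112 CPM at washout in animal 23004 (next 56.1).

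The change from post-treatment to washout differed between AT and SM for 3 of the 7 genes by the interaction test, against 22.7% of all 12322 genes. The log2 change in AT minus that in SM was -2.32 for C1QB, -2.52 for C1QC and -2.27 for C5AR1. Without the SM washout library of animal 22130 the values were -1.49, -1.63 and -1.44, of which that of C1QC passed the threshold (3059 of all genes). None of the 3 passed with library size alone or with the series in the model (3021 and 4143 of all genes). In the last series alone the values of C1QB and C1QC were 0.40 and 0.14.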

How the results depend on the processing

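Of the 7 complement genes, 3 were DE in AT post-treatment versus pre-treatment. The count was 5 with DESeq2 and 1 without the pre-treatment library of animal 20275. With voomWithQualityWeights, with only the 2 time points fitted or in the last identifier series alone it was 0. Over all genes, 2607, 1164, 1844, 1496 and 808 were DE in these fits in the same order, against 2068. The count stayed at 3 with the identifier series in the model (2025 of all genes). It ranged from 0 to 5 when each animal was left out in turn. At washout versus pre-treatment the 3 calls became 0 in the last series alone (1120 of all genes, against 2735). They became 5 with voomWithQualityWeights or with only the 2 time points (3685 and 3374 of all genes). With the series in the model they stayed at 3 (3282 of all genes), and they ranged from 3 to 4 over left-out animals. At washout versus post-treatment the count stayed at 5 or 6 in every alternative run. In SM the last series alone gave 6 calls at washout versus post-treatment in place of 0 (3009 against 24 over all genes). In that fit only animals 21189 and 24849 had libraries at both time points. C1QB was at -2.81, C1QC at -2.19 and C5AR1 at -1.80 there, and their fitted values over all libraries were positive. Leaving out each SM animal in turn gave 0 calls. The 3 interactions at washout versus post-treatment became 0 with library size alone or the series in the model (3021 and 4143 of all genes, against 2793). The count was 1 without the SM washout library of animal 22130 (3059 of all genes). It was also 1 in the last series alone (3871 of all genes), for SERPING1. In that fit C1QB was at 0.40, C1QC at 0.14 and SERPING1 at 1.87, each with the sign turned. The last series alone also gave 1 interaction at washout versus pre-treatment in place of 0 (2248 of all genes, against 2157). The cause was not tested for any of these. Without the animal as a block, 2 genes were DE in AT post-treatment, 5 at washout versus post-treatment and 3 versus pre-treatment, and 0 in SM. That setting gave 2 interactions at washout versus post-treatment (2734 of all genes). The earlier quasi-likelihood method, added after the data were seen as were the joint-tissue fits by series and those without the SM washout library of animal 22130, gave 3, 5 and 3 calls in AT. Many uncalled SM values changed sign between alternatives, C1QC at washout versus pre-treatment in 11 of 20.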
